A study of Mus musculus with 12 samples.

Results

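miR-26a-5p and miR-26b-5p are the main mature products of the miR-26 family, and both were read on every array of a study of exosomal miRNAs after repetitive mild traumatic brain injury (rmTBI). They were chosen by name, as the 5p arms of the family, and they are 2 of the 1881 mouse miRNAs in the array files. The RNA came from exosomes, small membrane vesicles released by cells. These were isolated from mixed tissue of cortex and hippocampus and captured as vesicles of microglia, the resident immune cells of the brain. All mice were adult male C57BL/6 animals. The injured mice received 4 closed-head impacts with an interval of 48 h, and their exosomes were collected at 3, 14, or 42 days post-injury (DPI), which stand for the acute, sub-acute, and chronic phase. The sham mice went through the same procedures without impact. There was no group of exosomes from other cells, so the origin rests on the capture of the vesicles with an antibody to CD11b, a surface protein that microglia share with other myeloid cells. The 4 groups held 3 single-color Agilent arrays each, and since the labels do not say that each array was a separate animal, the p-values may measure technical spread only.

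A miRNA is cut from a hairpin precursor, and a single arm of it, here the 5p arm, is usually loaded into the silencing complex. The seed, bases 2 to 8 from the 5′ end, pairs with target messages and decides most of what a miRNA represses. The miR-26 genes lie inside genes for small phosphatases of the CTDSP family, which keep neuronal genes repressed in other tissues, and miR-26 is known to repress messages of these hosts. It is abundant in the adult brain.

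Both mature sequences were taken from RefSeq with the build GRCm38.p6, and they are shown with the seed in capitals because the seed is what the pair shares.
mmu-miR-26a-5p: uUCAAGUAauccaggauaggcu
mmu-miR-26b-5p: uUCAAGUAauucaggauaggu

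Of the 1881 miRNAs in the files, 1608 matched a RefSeq entry, and 0 others of these had the same 7 bases at this place. Outside the seed the mature sequences differ by C11U and C21U, counted from the 5′ end with the base of miR-26a-5p first, and miR-26a-5p is 1 base longer, with 22 bases against 21. In the next lines the capitals mark these differences instead.
mmu-miR-26a-5p: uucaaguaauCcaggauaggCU
mmu-miR-26b-5p: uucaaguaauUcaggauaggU

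miR-26a-5p has 2 genes on the plus strand, Mir26a-1 at chr9:119031796-119031885 and Mir26a-2 at chr10:126995530-126995613, and their mature 5p sequence is the same, so the arrays could not tell them apart. Mir26b lies at chr1:74394310-74394394, also on the plus strand. The hairpins sit within the bounds of Ctdspl, Ctdsp2, and Ctdsp1, respectively. The hairpins are shown with the mature 5p arm in capitals, because the arm downstream of it in the same hairpin was also printed on the arrays.
Mir26a-1: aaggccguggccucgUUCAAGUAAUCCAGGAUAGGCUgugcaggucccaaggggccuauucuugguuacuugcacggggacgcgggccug
Mir26a-2: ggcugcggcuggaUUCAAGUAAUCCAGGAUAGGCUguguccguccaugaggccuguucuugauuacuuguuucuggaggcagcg
Mir26b: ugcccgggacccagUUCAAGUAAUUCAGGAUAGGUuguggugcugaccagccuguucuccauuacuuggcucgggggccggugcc

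The arrays differed in brightness between groups, and those of 42 DPI were the brightest. The stated RNA input was 0.2 µg for every array. The 75th percentile of the signal, over the 230 miRNAs detected on all 12 arrays, ran from 217 to 348 in sham, from 401 to 619 at 3 DPI, from 588 to 1173 at 14 DPI, and from 1385 to 2936 at 42 DPI. All 3 sham arrays and 1 array of 3 DPI were on slide 1, and the other 8 arrays were on slide 2, so no sham array shared a slide with an array of 14 or 42 DPI. No spot was saturated. The recorded scan position of all 720 spots of the members, over the 12 arrays, lay nearest to the spot grid fitted to their own array. This was so for every spot of all but 1 miRNA, the neuronal miR-124-3p. Its 270 spots on the 9 injury arrays all lay nearest to the grid of another array, and its values on them are not reported here. It was not taken out of the fits, and it counts among the 486 miRNAs tested below. Of 6 miRNAs listed for microglia and myeloid cells, 1 was detected on all 3 sham arrays and 4 on none, among them the myeloid miR-142a-3p. All 6 neuronal miRNAs listed beside miR-124-3p were detected on all 3 sham arrays. miR-124-3p itself, whose spots lay on their own grid there, was detected on none of the sham arrays. A neuronal share in the captured vesicles was not tested.

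Both 5p arms were detected on all 12 arrays. Each was read by 2 probes printed 15 times, and 697 of the 720 spots were kept after spots marked as outliers were left out. All kept spots lay well above background. The spread between spots of a probe within an array, as a coefficient of variation, had a median of 2.24% and 2.50% for the probes of miR-26a-5p (A_54_P2481 and A_54_P4384) and of 4.73% and 4.71% for those of miR-26b-5p (A_54_P2483 and A_54_P2484). For miR-26b-5p the highest values were 12.4% for A_54_P2483 and 7.99% for A_54_P2484, both on replicate 2 of sham. These are spreads of single spots, and a probe's value is the mean of up to 15 of them.

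The 3p arms, the usual passenger strands of the hairpins, were not detected. miR-26a-1-3p, miR-26a-2-3p, and miR-26b-3p were each detected on 0 of 12 arrays, and none of their probes had a single kept spot well above background. Their summed signals lay between -5.06 and 6.03 over all arrays. These are values around the background, and they place no order on the groups.

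Before scaling, the signal of both 5p arms followed the brightness of the array. The summed signal of miR-26a-5p was 958, 996, and 1687 in sham, 2024, 2834, and 1623 at 3 DPI, 2291, 7030, and 7094 at 14 DPI, and 16850, 7701, and 10536 at 42 DPI. That of miR-26b-5p was 118, 120, and 209 in sham, 243, 319, and 165 at 3 DPI, 264, 867, and 849 at 14 DPI, and 2313, 1012, and 1389 at 42 DPI. On this scale all arrays of 42 DPI were brighter than all other arrays for both miRNAs. Signals of different probes are not comparable as amounts, so the higher signal of miR-26a-5p does not show that it was the more abundant of the pair.

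**Figure D1:**
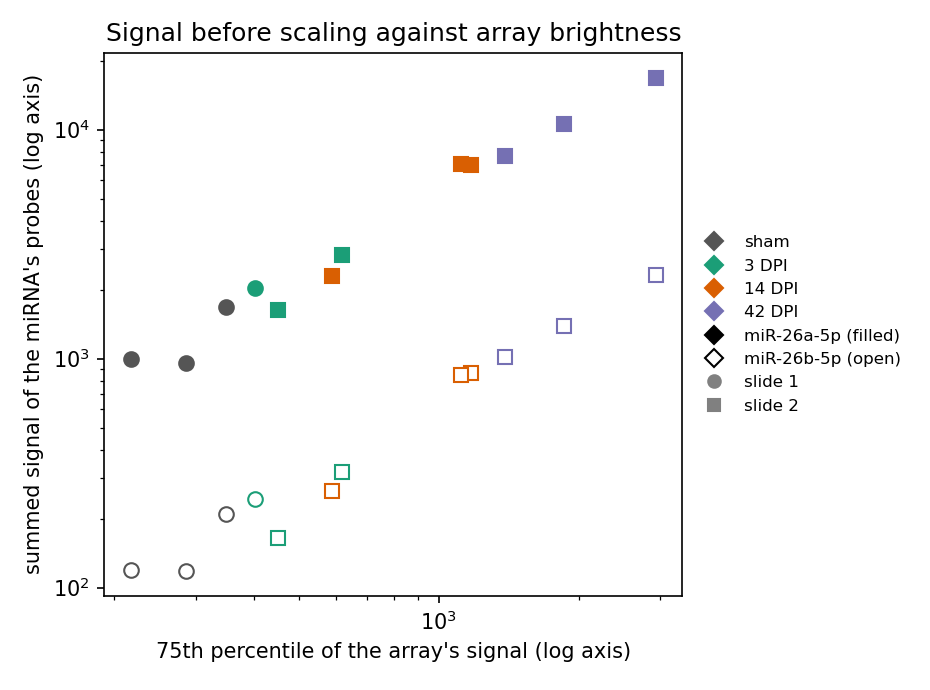
Summed signal of miR-26a-5p (filled) and miR-26b-5p (open) on each of the 12 arrays against the 75th percentile of that array's signal, both axes on a log scale, with color for group and shape for slide. Signals of both rise with the brightness of the array, from the sham arrays, with percentiles of 217 to 348, to the arrays of 42 DPI, with 1385 to 2936.

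The groups were therefore compared after each array was divided by its own 75th percentile, on the log2 scale, and this is the scaled level in what follows. For miR-26a-5p the scaled level was 1.75, 2.20, and 2.28 in sham, 2.33, 2.19, and 1.85 at 3 DPI, 1.96, 2.58, and 2.67 at 14 DPI, and 2.52, 2.48, and 2.50 at 42 DPI. The 3 arrays of 42 DPI lay above all 3 sham arrays and all 3 arrays of 3 DPI, and they lay inside the range of 14 DPI. The group means rose from 2.07 ± 0.28 in sham to 2.13 ± 0.25 at 3 DPI, 2.40 ± 0.39 at 14 DPI, and 2.50 ± 0.02 at 42 DPI (SD, n = 3 arrays each). No neighbors in this order differed beyond their spread.

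For miR-26b-5p the scaled level was -1.27, -0.86, and -0.74 in sham, -0.72, -0.96, and -1.45 at 3 DPI, -1.15, -0.44, and -0.39 at 14 DPI, and -0.34, -0.45, and -0.42 at 42 DPI. Again the arrays of 42 DPI lay above all arrays of sham and of 3 DPI and overlapped with those of 14 DPI. The lowest mean was that of 3 DPI, -1.04 ± 0.37, followed by sham with -0.95 ± 0.28, 14 DPI with -0.66 ± 0.43, and 42 DPI with -0.41 ± 0.06 (SD, n = 3 arrays each). Here too no neighbors differed beyond their spread.

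**Figure D2:**
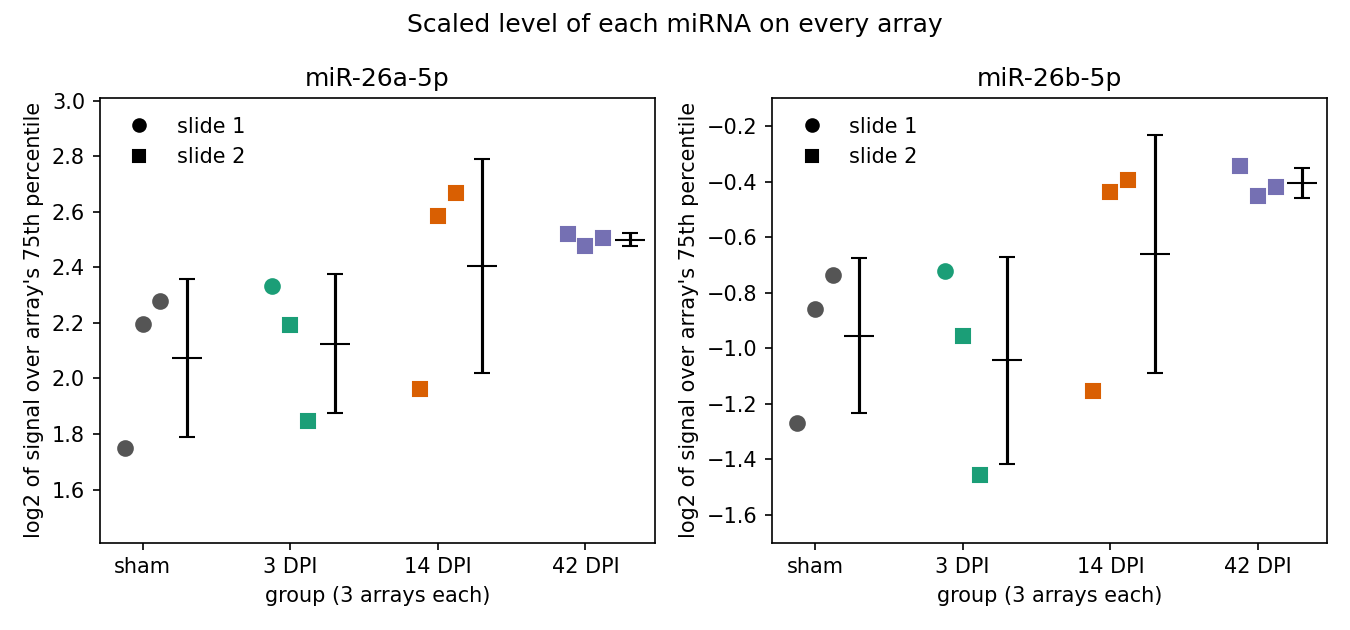
Scaled level (log2 of the summed signal over the array's 75th percentile) of both miRNAs on each array, by group, with circles for slide 1, squares for slide 2, and the mean ± SD of 3 arrays beside the points. Both miRNAs have 1 low array in sham, at 3 DPI, and at 14 DPI, and 3 close and high arrays at 42 DPI.

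The same arrays were low for both miRNAs. Replicate 1 of sham, replicate 3 of 3 DPI, and replicate 1 of 14 DPI had the lowest scaled level of their group in each case. Within a group the levels spanned up to 0.71 for miR-26a-5p and 0.76 for miR-26b-5p, both at 14 DPI, against 0.05 and 0.11 at 42 DPI. Over the 12 arrays the scaled levels of the pair had a Pearson correlation of 0.97 and a Spearman correlation of 0.96, and their deviations from the group means had one of 0.98. The points share the array and its scaling, and these correlations are a description.

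In the acute phase, neither miRNA passed the test. At 3 DPI versus the sham group, the scaled level of miR-26a-5p differed by 0.05 (95% interval from -0.44 to 0.54) and that of miR-26b-5p by -0.09 (from -0.67 to 0.49), both with an adjusted p of 1 by limma with Benjamini-Hochberg adjustment over 486 miRNAs. The sign is not settled for either. On slide 1, the single array of 3 DPI lay 0.26 above the mean of the 3 sham arrays for miR-26a-5p and 0.23 above it for miR-26b-5p. Over all miRNAs tested, limma called 0 of 486 in this comparison (0%), with 5 at an unadjusted p under 0.05, and the methods' t-test called 0 after adjustment. All 3 arrays of 3 DPI lay above all sham arrays for 3 of 486 miRNAs (0.617%), and neither member was among them.

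In the sub-acute phase, both levels were higher on average and neither passed the test. At 14 DPI versus the sham group, the difference was 0.33 for miR-26a-5p (from -0.16 to 0.82, adjusted p = 0.588 by limma) and 0.29 for miR-26b-5p (from -0.29 to 0.87, adjusted p = 0.684 by limma). Both intervals include 0. Across miRNAs, the deviations of same-numbered arrays in these groups correlated (0.84, 0.44, and 0.78). The labels do not pair these arrays, and the 3 values are not independent, since deviations within a group sum to 0. A block by replicate number thus rests on these same data alone, and its interval is a description. Between same-numbered arrays the differences were 0.21, 0.39, and 0.39 for miR-26a-5p and 0.12, 0.42, and 0.34 for miR-26b-5p, all higher at 14 DPI. Blocked by replicate number, with only these groups in the fit, the interval was 0.13 to 0.53 for miR-26a-5p and -0.02 to 0.60 for miR-26b-5p. The adjusted p was 0.221 and 0.298 by limma. limma called 6 of 486 miRNAs here (1.23%), and 0 in that blocked fit. Without replicate 1 of 14 DPI it called 82, and without any one sham array, among others, it called 0. All arrays of 14 DPI lay above all sham arrays for 16 of 486 (3.29%), while replicate 1 of 14 DPI overlapped with sham for both members.

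In the chronic phase the differences from sham were larger, and they did not pass the adjusted threshold either. At 42 DPI versus the sham group, the scaled level of miR-26a-5p was higher by 0.43 (from -0.07 to 0.92), a 1.34-fold difference, with an adjusted p of 0.224 by limma. That of miR-26b-5p was higher by 0.55 (from -0.03 to 1.13), a 1.46-fold difference, with an adjusted p of 0.185 by limma. The groups did not overlap for either member, but that was so, in this direction, for 116 of 486 miRNAs (23.9%). limma called 68 of 486 miRNAs in this comparison (14%), 35 of them higher at 42 DPI. That count rested on single arrays: it was 0 without replicate 2 of sham, replicate 1 of 3 DPI, or any one array of 42 DPI, 2 without replicate 1 of sham, 31 without replicate 3 of sham, and 133 without replicate 1 of 14 DPI. It was 27 with the replicate number as a block over all groups, and 2 with that block and only the groups compared. With the slide as a block it was 0. It was 99 of 230 when only the 230 miRNAs detected on all arrays, as both members were, entered the fit. Without replicate 1 of sham the difference of miR-26a-5p was 0.26. Neither member was called in any of these fits.

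Between the injury groups, the pattern was the same. At 14 DPI versus 3 DPI the difference was 0.28 (from -0.21 to 0.77, adjusted p = 0.661 by limma) for miR-26a-5p and 0.38 (from -0.20 to 0.96, adjusted p = 0.636 by limma) for miR-26b-5p, where limma called 3 of 486 miRNAs (0.617%), and 58 without replicate 1 of 14 DPI. Within slide 2, which holds 2 arrays of 3 DPI, it was 0.38 and 0.54. Groups that did not overlap, with 14 DPI higher, were found for 14 of 486 (2.88%) and for neither member.

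At 42 DPI versus 3 DPI, miR-26a-5p was higher by 0.37 (from -0.12 to 0.87, adjusted p = 0.286 by limma). The level of miR-26b-5p was higher by 0.64 (from 0.06 to 1.22), which is 1.56-fold and the only interval of the 12 that did not include 0, with an adjusted p of 0.129 by limma. Within slide 2 the differences were 0.48 and 0.80, and neither was called. In all, limma called 19 of 486 miRNAs (3.91%), and the members were not among them. This count was 129 without replicate 1 of 14 DPI and 0 without any one array of sham or 42 DPI. It was 96 of 230 when only the 230 miRNAs detected on all arrays entered the fit, again without the members. For both members all arrays of 42 DPI lay above those of 3 DPI, as for 103 of 486 miRNAs (21.2%).

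At 42 DPI versus 14 DPI the difference was 0.10 (from -0.40 to 0.59, adjusted p = 1 by limma) for miR-26a-5p and 0.26 (from -0.32 to 0.83, adjusted p = 0.864 by limma) for miR-26b-5p. Without replicate 1 of 14 DPI, the difference of miR-26a-5p turned to -0.13 and that of miR-26b-5p was 0.0096. limma called 0 of 486 miRNAs (0%), with 23 at an unadjusted p under 0.05, and the methods' t-test called 0 after adjustment. All arrays of 42 DPI lay above those of 14 DPI for 8 of 486 (1.65%), without the members.

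**Figure D3:**
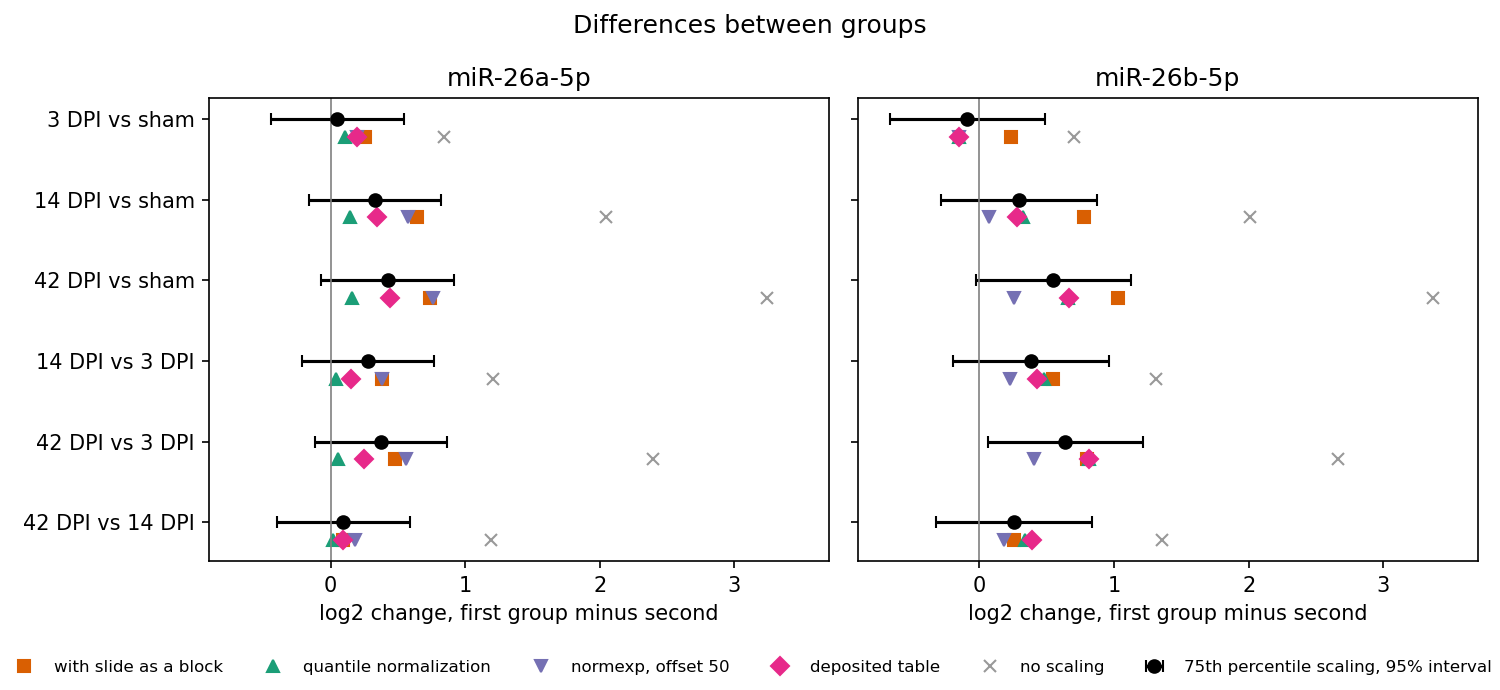
Difference in scaled level (log2, first group minus second) of both miRNAs in the 6 comparisons, with black points and 95% intervals for the limma fit over 12 arrays and other symbols for other processing. Of the 12 black intervals, 11 include 0, and the values without scaling lie far to the right of them in every comparison with 14 or 42 DPI.

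How the arrays were brought to 1 scale changed the call. Without scaling, limma called both members higher at 14 and at 42 DPI versus the sham group, with differences at 42 DPI of 3.24 for miR-26a-5p and 3.37 for miR-26b-5p (both adjusted p = 1.58e-05). It then called 321 of 486 miRNAs at 14 DPI and 409 at 42 DPI. The median of the 230 miRNAs detected on all arrays moved by 2.80 at 42 DPI versus the sham group, and relative to it the members were higher by 0.45 and 0.57. With normexp background correction (offset 50) miR-26a-5p was called at 42 DPI versus sham (0.76, adjusted p = 0.00893 by limma), while miR-26b-5p was not. Under normexp the median of the 230 moved by -0.77 in this comparison. With quantile normalization the difference was 0.16 for miR-26a-5p and 0.66 for miR-26b-5p. It was 1.20 and 1.32 when the 75th percentile was taken over all miRNAs (adjusted p = 0.0708 and 0.0701 by limma), and 0.84 and 0.96 when the median of the 230 miRNAs took its place (adjusted p = 0.0778 and 0.0755 by limma). The median of the 230 itself moved by 0.75 and 0.39 under these scalings, and neither member was called under the 3. With the slide as a block it was 0.74 and 1.03 (adjusted p = 0.456 and 0.448 by limma), a value that rests on the single array of 3 DPI on slide 1.

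The probes of each miRNA moved together. The probe A_54_P2481 gave between 33.6% and 34.9% of the signal of miR-26a-5p on every array, and A_54_P2483 gave between 34.3% and 36.5% of that of miR-26b-5p. At 42 DPI versus the sham group the difference was 0.41 and 0.43 for the probes of miR-26a-5p, and 0.59 and 0.52 for those of miR-26b-5p. None of the 4 probes was called in any of the 6 comparisons when limma was fitted over 870 probes. Agreement of probes on the same arrays says nothing of the spread between arrays. The mature sequences differ at 2 of the 21 positions they share, and binding of a probe to the other member was not tested.

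**Figure D4:**
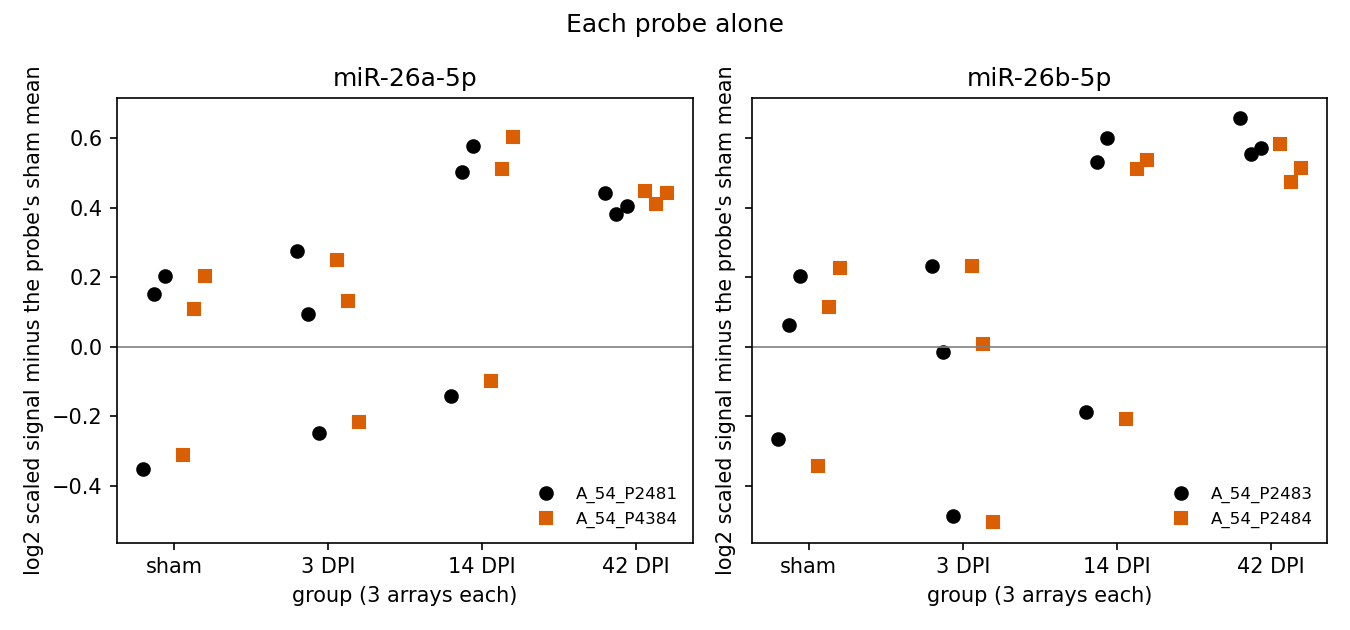
Scaled signal of each of the 4 probes on each array, as the log2 difference from the probe's own mean in sham. On each array both probes of a miRNA lie at nearly the same height, and the low array of sham, 3 DPI, and 14 DPI is low for all 4 probes.

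A division of the whole array by 1 number cancels in the difference between the pair within an array, while quantile normalization does not. The log2 signal of miR-26a-5p minus that of miR-26b-5p was 3.02, 3.06, and 3.01 in sham, 3.06, 3.15, and 3.30 at 3 DPI, 3.12, 3.02, and 3.06 at 14 DPI, and 2.87, 2.93, and 2.92 at 42 DPI. The size of this value depends on the brightness of the probes, and only its change between arrays can be read. The 3 arrays of 42 DPI had the lowest values, at most 2.93 against at least 3.01 on the other 9 arrays, and so they did for each of the 4 pairs of probes. Versus the sham group the mean at 42 DPI (2.91 ± 0.03 against 3.03 ± 0.02, SD, n = 3 arrays each) fell by 0.12, with an exact two-sided permutation p of 0.1. This is the smallest p that 3 against 3 arrays can give, and adjusted over the 6 comparisons it was 0.2.

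At 42 DPI it fell by 0.26 versus 3 DPI and by 0.16 versus 14 DPI, both with an exact permutation p of 0.1 and an adjusted p of 0.2. Within slide 2 it fell by 0.32 versus 3 DPI. At 3 DPI it was higher than in sham by 0.14 (exact permutation p = 0.2), at 14 DPI by 0.04 (exact permutation p = 0.3), and at 14 DPI it fell by 0.10 versus 3 DPI (exact permutation p = 0.3). The lower value at 42 DPI was not kept under every processing. With normexp and an offset of 50 the difference was lowest in sham (2.30 ± 0.14) and stood at 2.81 ± 0.02 at 42 DPI (SD, n = 3 arrays each), a rise of 0.51. The offset is of the size of the probe signals of miR-26b-5p on the sham arrays, and adding 50 to each probe without normexp gave a rise of 0.44. With normexp and no offset, the value at 42 DPI was 2.89 ± 0.03 against 2.89 ± 0.03 in sham (SD, n = 3 arrays each), and the groups overlapped. With quantile normalization it fell by 0.50.

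**Figure D5:**
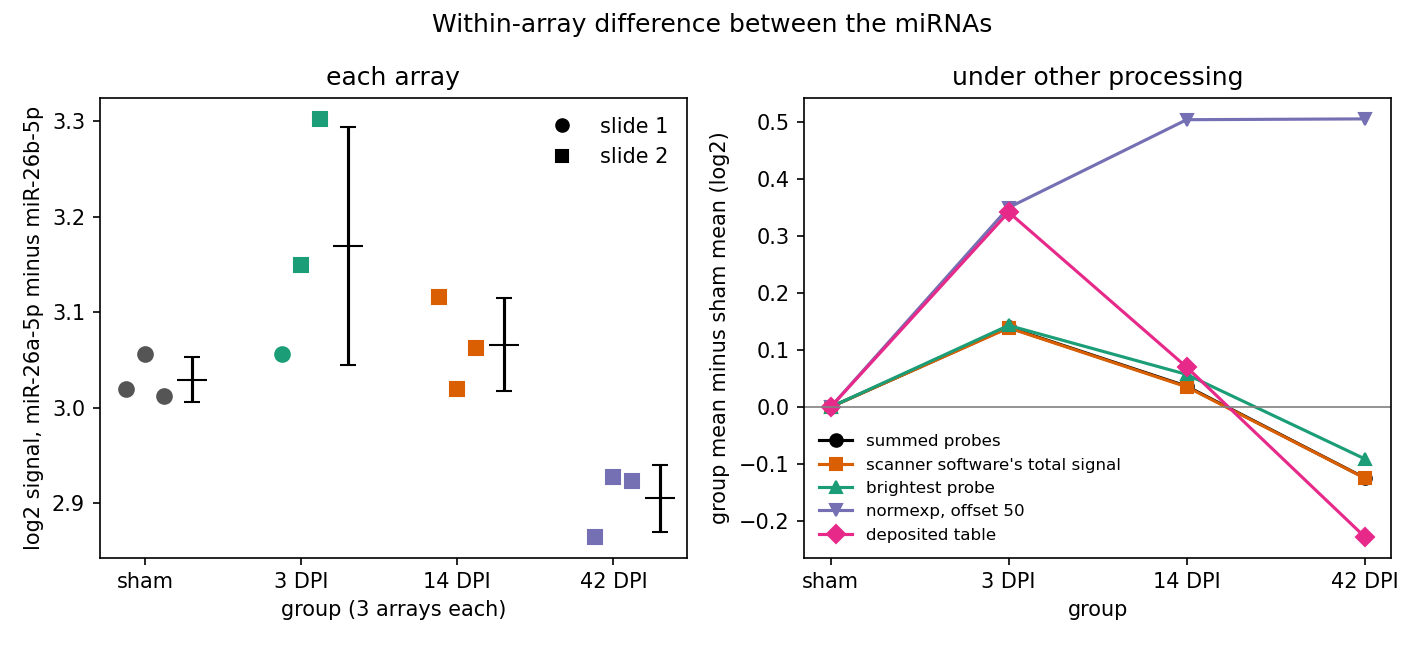
Left, log2 signal of miR-26a-5p minus that of miR-26b-5p on each array, by group and slide, with the mean ± SD of 3 arrays. Right, the group means minus the sham mean under 5 ways of processing, where 4 of them put 42 DPI below sham and normexp with an offset of 50 puts it 0.51 above.

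The miRNAs whose scaled level was most like that of the members over the 12 arrays were found among the other 228 detected on all arrays. For miR-26a-5p these were miR-487b-3p (Pearson correlation 0.98), miR-411-5p (0.98), miR-93-5p (0.97), miR-598-3p (0.96), and miR-381-3p (0.96). For miR-26b-5p they were miR-487b-3p (0.99), miR-21a-5p (0.99), miR-99a-5p (0.98), miR-500-3p (0.98), and miR-106b-5p (0.98). miR-487b-3p came first for both. With the members counted, miR-26b-5p stood at place 4 of 229 for miR-26a-5p, and miR-26a-5p at place 9 of 229 for miR-26b-5p. Other miRNAs thus followed each member more closely than its partner did. The median correlation with the 228 was 0.50 for miR-26a-5p and 0.47 for miR-26b-5p. At 42 DPI versus the sham group these 9 miRNAs were higher by 0.33 to 0.87, and none of them was called.

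The pair was set beside 3 other families that are common in brain. At 42 DPI versus the sham group the median difference of the pair was 0.49. It was 0.56 over the 9 members of let-7 and miR-98, which are known for restraining growth, with 1 called higher. It was 0.93 over the 5 members of miR-30, with 3 called higher, and 0.52 over the 3 members of miR-29, with 0 called, where 35 of all 486 miRNAs (7.2%) were called higher. The members of miR-30 ran from -0.25 to 1.41. The median difference was 0 over all 486 miRNAs and -0.02 over the 230 detected on all arrays. Of the 486, 142 lay at the common floor for low signals on all arrays of both groups. These differed by 0 and could not be called, and they count in the shares of the 486. At 3 DPI versus the sham group the medians were -0.02 for the pair, -0.07 for let-7 and miR-98, 0.08 for miR-30, and 0.04 for miR-29, with 0 called in any of them.

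The summed levels of 4 of the 5 cell type lists were also higher on all arrays of 42 DPI than on all sham arrays. The same was so for 116 of 486 single miRNAs (23.9%). The sum of the erythrocyte list was lower, but none of its miRNAs was detected in sham. As a multiple of the array's 75th percentile, the 6 neuronal miRNAs other than miR-124-3p summed to between 18.5 and 25.6 in sham and between 31.4 and 36.3 at 42 DPI, with all 6 detected throughout. The 3 oligodendrocyte miRNAs summed to between 1.80 and 2.51 in sham and between 4.12 and 4.43 at 42 DPI, with all 3 detected throughout. The 6 microglial and myeloid miRNAs summed to between 0.668 and 0.931 in sham, where 4 of 6 were detected on no array. They summed to between 1.34 and 1.50 at 42 DPI, where 4 of 6 were detected on all arrays. The 4 vessel miRNAs summed to between 1.05 and 1.48 in sham, where 3 were detected on no array. At 42 DPI they summed to between 1.51 and 1.76, with all 4 detected. The 3 erythrocyte miRNAs summed to between 0.0828 and 0.124 in sham, with all 3 detected on no array. At 42 DPI they summed to between 0.0431 and 0.0822, and 1 was detected on all arrays. The sham sums are of undetected miRNAs, so the lower sum does not show a lower level. The part of these cell types in the levels of the pair was not tested.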

How the data were processed

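Exosomal RNA was hybridized to single-color Agilent miRNA arrays, 3 per group, and read with Agilent Feature Extraction 10.7.1.1, per the labels. The authors deposited a background-corrected intensity per spot, and a table of log2 values of unstated scaling whose columns all have a median of -3.32. From the intensities, control and outlier spots were left out, spots averaged per probe, and probes summed per miRNA. Sums were divided by the array's 75th percentile over 230 miRNAs detected on all arrays, given a common floor (-3.66 as a log2 value), and log2-transformed. A miRNA counted as detected where more than 0.5 of the kept spots of a probe were well above background. limma 3.58.1 (R 4.3.3) was fitted over 12 arrays to the 486 miRNAs that some group had on all of its arrays, two-sided. It was tested on simulated data. The other steps used Python 3.11.15 and SciPy 1.17.1. The number of arrays limits the precision.

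The members and lists were chosen with earlier results of these data known. The names given are the members, the 3p arms, and the 5 miRNAs with the highest correlation with each member. Other families were described by counts. Replicate arrays correlated across miRNAs at 0.888 to 0.998. Same-numbered arrays of sham and 14 DPI deviated together (0.84, 0.44, and 0.78), which comes from the correlations alone, while those of the other pairs of groups did not all do so.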

Additional observations from a re-analysis of the deposited data

How the results depend on the processing

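Of 392 alternative values for the members, 372 kept the direction and the side of the threshold, 10 passed it, and 10 turned in sign. Many of these settings cannot move a member's value, and only the p-value could change. They are the floors, the filters, the replicate blocks, the t-test, and leaving out an array of a group not compared. The 372 thus overstates how far the direction was put to the test. For miR-26a-5p at 3 DPI versus sham the value turned to -0.022 with the 75th percentile over all miRNAs. For miR-26b-5p there it turned to 0.061 with the scanner software's total signal, 0.70 without scaling, and 0.23 with slide as a block or only slide 1, and the cause of these was not tested.

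Without scaling, both members were called at 14 DPI versus sham (2.05 for miR-26a-5p and 2.01 for miR-26b-5p), at 42 DPI versus sham (3.24 and 3.37), and at 42 DPI versus 3 DPI (2.40 and 2.66), and miR-26b-5p was called at 42 DPI versus 14 DPI (1.35). With normexp, miR-26a-5p was called at 14 DPI (0.57) and 42 DPI (0.76) versus sham and at 42 DPI versus 3 DPI (0.56).

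Leaving out 1 array made no call of a member. The values of miR-26a-5p and miR-26b-5p then ran from -0.11 to 0.19 and from -0.25 to 0.12 at 3 DPI versus sham, from 0.17 to 0.55 and 0.14 to 0.54 at 14 DPI versus sham, and from 0.26 to 0.53 and 0.39 to 0.66 at 42 DPI versus sham. They ran from 0.14 to 0.50 and 0.18 to 0.63 at 14 DPI and from 0.24 to 0.48 and 0.43 to 0.80 at 42 DPI versus 3 DPI, and from -0.13 to 0.23 and 0.0096 to 0.39 at 42 DPI versus 14 DPI. The extremes came without replicate 1 or 3 of sham or of 3 DPI, or replicate 1 or 3 of 14 DPI. The within-array difference ran from 0.073 to 0.20 at 3 DPI versus sham, without replicate 3 or 1 of 3 DPI. With the replicate number as a block and only the groups compared, miR-26a-5p at 14 DPI versus sham (0.33) had an adjusted p of 0.221 by limma, and the block changed no call of a member.

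The within-array difference, in the order 3, 14, and 42 DPI versus sham, 14 and 42 DPI versus 3 DPI, and 42 DPI versus 14 DPI, was 0.35, 0.50, 0.51, 0.15, 0.16, and 0.0014 with normexp and offset 50. With 2 settings chosen after seeing the data it was, in this order, 0.34, 0.46, 0.44, 0.13, 0.11, and -0.020 with 50 added to each probe and no normexp, and 0.26, -0.18, -0.50, -0.44, -0.76, and -0.32 with quantile normalization. With normexp and offset 0, also chosen then, it was 0.13 at 14 DPI and 0.00063 at 42 DPI versus sham. In the deposited table it was 0.34 at 3 DPI and -0.23 at 42 DPI versus sham, -0.27 at 14 DPI and -0.57 at 42 DPI versus 3 DPI, and -0.30 at 42 DPI versus 14 DPI. With the brightest probes (A_54_P4384 and A_54_P2484) it was -0.091 at 42 DPI versus sham, and with other pairs of probes, chosen after seeing the data, it was -0.19 (A_54_P2481 and A_54_P2483) and -0.16 (A_54_P4384 and A_54_P2483), with -0.0024 for A_54_P2481 and A_54_P2483 at 14 DPI versus sham.

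Calls over all miRNAs tested depended far more on the processing, from 0 without a filter on detection to 370 with normexp at 14 DPI versus sham (6 in the main setting), and from 0 to 429 at 42 DPI versus sham (68). They ran from 0 to 95 at 3 DPI versus sham (0), from 0 to 107 at 14 DPI (3) and from 0 to 414 at 42 DPI (19) versus 3 DPI, and from 0 to 294 at 42 DPI versus 14 DPI (0). The methods' t-test, at an unadjusted p under 0.05, took in miR-26b-5p at 42 DPI versus sham and versus 3 DPI, and in neither case did it pass after adjustment (adjusted p = 0.0642 and 0.111). The t-test gave 178 and 145 such miRNAs in these comparisons, and 139 and 38 after adjustment. Brightness over background limits what the sham arrays can show for dim miRNAs. For miR-26a-5p the lowest probe mean in sham was 322. miR-26b-5p was dimmer there, and its probe A_54_P2483 had means of 43.0, 41.1, and 72.8. All kept spots of both members lay well above background. Even so, the within-array difference at 42 DPI versus sham turned from a fall to a rise when an offset was added.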
